A study of Mus musculus with 7 samples.

Results

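5-methylcytosine (5mC) enrichment was mapped by MeDIP-seq in cultured mouse hippocampal neurons, and the regions described here are those that lay at the boundaries of protein-coding genes and were called in every library. A region was taken when it held a called interval of all 6 libraries and overlapped the 1 kb on either side of the start or the end coordinate of an autosomal protein-coding gene of the RefSeq annotation (GRCm38.p6). There were 1562 such gene-boundary regions among 133337 active regions in all, and they made up 5.82% of the 26850 autosomal regions called in all 6 libraries. Strand was given for 16457 of the 20665 genes. It placed 362 regions at a start only, 781 at an end only and 84 at both a start and an end, and 335 regions lay only at genes without strand. The start is the outermost coordinate of the gene on the side where transcription begins, and the end is the coordinate where the gene stops. Transcripts can begin elsewhere. Of the 16457 RefSeq promoters nearest the start, 1 per gene, 9841 began at that coordinate and 14811 lay within 1 kb of it. The regions were chosen by their calls in the 6 libraries and by position, so their number, heights and lengths are descriptions without a test.

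The neurons were prepared from hippocampi of C57BL/6J embryos at E18.5, late in gestation, and kept for 11 days in vitro, in medium that received AraC, an inhibitor of dividing cells, at the medium changes. Of the 6 libraries, 3 came from cultures depolarised with 55 mM KCl for 4 h and 3 from untreated cultures, and 1 pooled input library was not analysed here. Whether the 3 libraries of a group stem from different cultures or animals is not stated in the labels, so that p-values measure the spread between libraries, which may be technical. The deposited value is a summit height per called interval, a whole number of unstated scaling that behaves like a pileup of fragments. Such DNA data cannot check the labelled cell type by expression, and the cultures can hold other cells than neurons. The KCl libraries held 93470, 60949 and 34834 intervals and the untreated libraries 87151, 87302 and 72947, so that KCl replicate 3 had the fewest.

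In mammalian DNA most CpG sites in gene bodies and between genes are methylated, while CpG islands, which cover the starts of most genes, are usually kept free of methylation. A small group of starts is an exception: promoters of germline genes are methylated and silent in somatic cells, and imprinted genes carry methylation on a single parental copy. MeDIP uses an antibody to 5mC, so its signal follows the number of methylated CpG sites in a fragment, and a methylated stretch with few CpG sites gives little signal.

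The promoters below are those at high start regions of germline genes (Dazl, Tex12, Hormad1 and Sycp2) and at that of Krt75, the highest start region of the keratin list. The promoter of Fos, an immediate early gene without any active region over it, is given for contrast. The bases of Dazl, Tex12 and Hormad1 lay wholly under the region. The Sycp2 region ended at 178407827 and the Krt75 region at 101574055, so the first bases printed for these genes lay outside it. Each line gives the 250 bases before the RefSeq start in GRCm38.p6, 5′ to 3′ on the gene's strand, with every CpG in capitals. Dazl lies at chr17:50293621-50293870 on the minus strand, Tex12 at chr9:50561269-50561518 on the minus strand, Hormad1 at chr3:95559427-95559676 on the plus strand, Sycp2 at chr2:178407659-178407908 on the minus strand, Krt75 at chr15:101573905-101574154 on the minus strand and Fos at chr12:85473640-85473889 on the plus strand.
Dazl: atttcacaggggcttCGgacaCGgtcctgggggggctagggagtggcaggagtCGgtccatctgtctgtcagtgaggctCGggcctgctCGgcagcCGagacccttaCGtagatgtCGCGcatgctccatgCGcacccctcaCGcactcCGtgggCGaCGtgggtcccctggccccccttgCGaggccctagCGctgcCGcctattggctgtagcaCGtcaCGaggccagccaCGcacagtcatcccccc
Tex12: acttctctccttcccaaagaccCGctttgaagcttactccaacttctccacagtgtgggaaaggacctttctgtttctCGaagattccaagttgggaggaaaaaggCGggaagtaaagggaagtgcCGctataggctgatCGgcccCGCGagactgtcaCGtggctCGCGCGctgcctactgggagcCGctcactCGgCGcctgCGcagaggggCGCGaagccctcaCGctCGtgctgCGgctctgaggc
Hormad1: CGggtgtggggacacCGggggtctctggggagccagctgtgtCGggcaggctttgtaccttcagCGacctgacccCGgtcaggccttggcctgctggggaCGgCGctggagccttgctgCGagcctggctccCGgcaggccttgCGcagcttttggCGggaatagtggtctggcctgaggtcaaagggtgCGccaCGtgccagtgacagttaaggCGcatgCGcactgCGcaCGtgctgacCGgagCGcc
Sycp2: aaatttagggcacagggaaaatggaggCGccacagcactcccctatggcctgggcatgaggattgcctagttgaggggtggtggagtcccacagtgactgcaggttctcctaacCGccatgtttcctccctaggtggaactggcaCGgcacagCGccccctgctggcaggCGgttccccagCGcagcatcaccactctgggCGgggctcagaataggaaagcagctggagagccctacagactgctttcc
Krt75: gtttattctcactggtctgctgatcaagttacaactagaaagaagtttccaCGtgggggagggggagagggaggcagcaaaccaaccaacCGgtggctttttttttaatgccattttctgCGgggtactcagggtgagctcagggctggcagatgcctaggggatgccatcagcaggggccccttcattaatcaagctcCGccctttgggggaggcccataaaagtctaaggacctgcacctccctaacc
Fos: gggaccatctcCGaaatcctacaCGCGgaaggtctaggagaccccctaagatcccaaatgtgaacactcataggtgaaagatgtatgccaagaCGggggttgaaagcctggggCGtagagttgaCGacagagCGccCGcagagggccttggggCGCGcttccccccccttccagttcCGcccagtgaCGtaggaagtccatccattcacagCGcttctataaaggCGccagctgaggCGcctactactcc
The 250 bases held 20 CpG sites at Dazl, 20 at Tex12, 19 at Hormad1, 7 at Sycp2 and 4 at Krt75, against 15 at Fos. The number of CpG sites alone thus did not set the called promoters apart from that of Fos. The letters CACGTG, the E-box of the MYC and MAX family of factors, began 93 bases before the start at Tex12, 57 and 20 bases before it at Hormad1 and 201 bases before it at Krt75, and were not found in the other 3 windows. At Krt75 they lay outside the called region.

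Regions called in every library lay at gene ends more often than at gene starts. Of the genes with strand, 444 (2.70%) had a region at the start and 887 (5.39%) had one at the end, a ratio of 2.00. Among the 1227 regions with strand, 446 (36.3%, Wilson 95% interval 33.7% to 39.1%, counting error only) touched a start. Including genes without strand, 1607 genes (7.78%) had such a region. The share with a region at the start was 3.50% of the 3682 genes shorter than 5 kb, 2.52% of the 9097 genes of 5 to 50 kb and 2.34% of the 3678 longer genes. At the end the shares were 5.35%, 5.73% and 4.59% in the same order of length, so that ends exceeded starts in all 3 length classes. Predicted genes, named Gm or LOC, carried a region in 52 of 1099 cases (4.73%), against 7.95% of the other genes. By chromosome, the share of genes with a region ran between 5.67% on chromosome 13 and 13% on chromosome 15, where 101 of 776 genes had one.

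The excess at ends held in each library taken alone. Counting genes with any interval of that library within 1 kb, starts were called at 1234, 895 and 522 genes in the KCl libraries, against 1163, 1223 and 1007 in the untreated libraries. Ends were called at 2329, 1728 and 1061 genes in the KCl libraries, against 2194, 2377 and 1795 in the untreated libraries. Both counts were lowest in KCl replicate 3 and the groups overlapped. The ratio of ends to starts was 1.89, 1.93 and 2.03 in the KCl libraries and 1.89, 1.94 and 1.78 in the untreated libraries, with means of 1.95 ± 0.0745 with KCl and 1.87 ± 0.0817 untreated (SD, n = 3 each). This ratio varied less between libraries than the counts did and did not separate the groups.

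Around the start, coverage by regions called in all 6 libraries dipped just upstream and had a small peak at the start itself. Over 10549 genes of at least 10 kb with strand, 0.322% were covered in the 100 bp bin 550 bp before the start, the lowest of 10 kb, and 0.705% on average within 500 bp of the start, against 0.785% between 5 and 3 kb before it. Around the end, coverage was highest inside the gene, at 2.41% of genes in the bin 2050 bp before the end. It averaged 1.45% in the last 1 kb of the gene and 0.683% in the first 1 kb beyond it, and was lowest, at 0.588%, 150 bp beyond the end. The fall came before the end coordinate, from 2.095% in the bin 950 bp before it to 0.607% in the bin 50 bp before it. Coverage in the last kilobases of these genes was thus greater than just beyond the end. Parts of genes more than 5 kb from a boundary were not profiled.

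**Figure D1:**
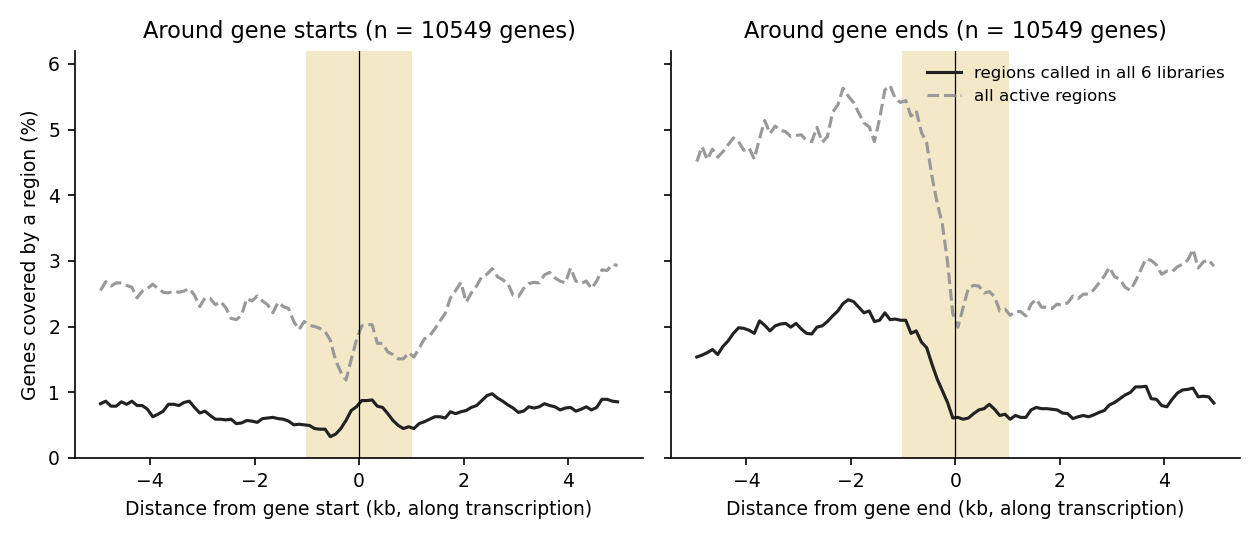
Share of genes (%) covered by a region called in all 6 libraries (solid line) or by any active region (dashed line) in 100 bp bins, against distance in kb from the gene start (left) and the gene end (right), over 10549 genes of at least 10 kb; the shaded band marks the 1 kb windows that chose the gene-boundary regions. Coverage by regions called in all 6 libraries was 2.41% of genes at its highest before the end and 0.588% just beyond it, and 0.322% at its lowest before the start.

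Summit positions gave the same picture within the windows. Of the 446 regions at a start, 298 (66.8%) had their summit inside the gene and 148 before it, at a median distance of 549 bp from the start. Summits lay within 250 bp of the start in 133 of them (29.8%). Of 865 regions at an end, 636 (73.5%) had their summit inside the gene and 229 beyond it, at a median distance of 730 bp, and 108 (12.5%) lay within 250 bp of the end. Start regions therefore covered the start coordinate itself in 145 cases (32.5%), while end regions covered the end coordinate in 118 (13.6%). Over the 6 libraries the summit of a region moved by a median of 48 bp, the same as in the 25288 other autosomal regions called in all 6 libraries.

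Gene-boundary regions were slightly higher and longer than the other regions called in all 6 libraries. Their mean height over the 6 libraries had a median of 26.7 and ranged between 10.8 and 271.5, against a median of 24.0 in the other regions. A mean height of at least 50 was reached by 12.9% of gene-boundary regions, against 8.56% of the others. Median length was 528.5 bp, against 490 bp, and 7.62% were at least 1 kb long, against 2.31%. A longer region is more likely to overlap a window, so the choice itself favours length, and how much this adds was not tested. Start and end regions were close to each other, with median heights of 26.5 and 26.3. In each of the 6 libraries the mean of log2(height + 1) was greater at gene boundaries than in the other regions, by 0.10 to 0.19, and greater at starts than at ends, by 0.03 to 0.11.

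The highest gene-boundary region lay at the start of Tmem267, which encodes a transmembrane protein, at chr13:119487671-119489381. Its heights were 332, 251 and 212 in the KCl libraries and 287, 322 and 225 in the untreated libraries. The next highest start region lay at chr11:87616764-87618067, at the start of Hsf5, a heat shock factor family gene, and within 1 kb of a boundary of Mtmr4, a phosphoinositide phosphatase gene. It had heights of 182, 145 and 86 with KCl and 178, 191 and 115 untreated. In both, KCl replicate 3 was the lowest library and the groups overlapped.

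Of the 10 highest start regions, 2 lay at genes of the germline list used below, Dazl and Sycp2, and Tex12, which is not on that list, is described with them. Tex12, a component of the synaptonemal complex that joins paired chromosomes in meiosis, had a region at chr9:50560572-50561583 with heights of 177, 152 and 103 in the KCl libraries and 146, 179 and 131 in the untreated libraries. Dazl, an RNA-binding protein needed for germ cell development, had one at chr17:50293063-50294077 with 171, 134 and 94 with KCl and 153, 186 and 120 untreated. Sycp2, another synaptonemal complex gene, had one at chr2:178406980-178407827 with 185, 128 and 97 with KCl and 156, 169 and 109 untreated. KCl replicate 3 was the lowest library at all 3 genes, and the groups overlapped. The summits at Tex12 and Dazl both lay 20 bp inside the gene, just past the bases printed above, which end at the start. The other 5 of the 10 highest start regions lay at Sec1, a fucosyltransferase gene whose start region also touched the end of the netrin gene Ntn5 (mean height 144.7), at the predicted gene Gm46731 (137.2), at Taf7l2 (103.2), at the cadherin gene Cdh24 (100) and at Vstm5 (99). The Cdh24 start region also lay at the end of Acin1.

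**Figure D2:**
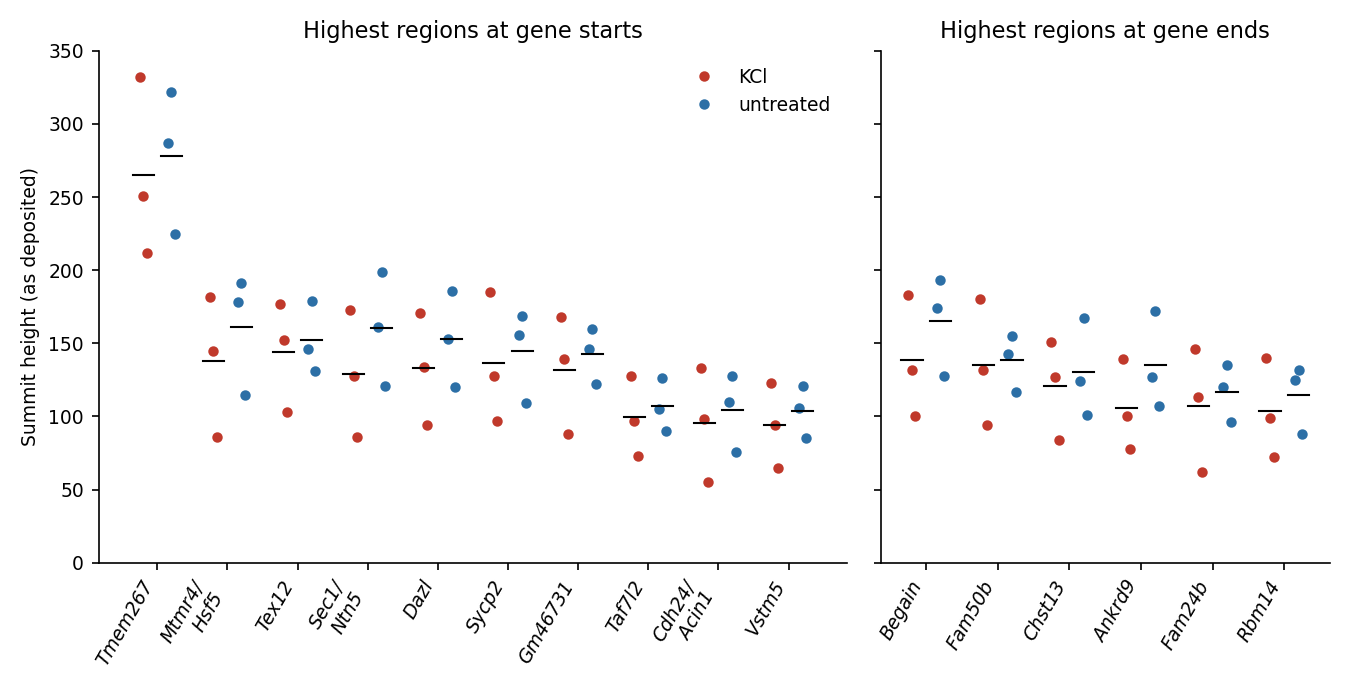
Summit height as deposited in each of the 3 KCl and 3 untreated libraries (points) with the group mean (black line) for the 10 highest start regions, including those that also touch an end, and the 6 highest regions at an end only. The libraries of both groups overlap in all 16 regions, and the Tmem267 region, at 212 to 332 with KCl and 225 to 322 untreated, stands above the rest.

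At ends, the highest region lay in the last part of Begain, which encodes a brain-enriched protein that binds guanylate kinase-like synaptic scaffolds, at chr12:109033068-109034633. Its heights were 183, 132 and 100 in the KCl libraries and 174, 193 and 128 in the untreated libraries, and its summit lay 1939 bp before the gene's end. Among regions at an end only, next came Fam50b at chr13:34746460-34747768, with 180, 132 and 94 with KCl and 143, 155 and 117 untreated. In both, the groups overlapped and KCl replicate 3 was lowest. The regions at Sec1 and Ntn5 (mean height 144.7) and at Gm46731 (137.2) also touched an end and were higher than that of Fam50b (136.8). They are ranked with the starts above. The other 4 of the 6 highest regions at an end only lay at Chst13, a chondroitin sulfotransferase gene (mean height 125.7), Ankrd9 (120.5), Fam24b (112.0) and the RNA-binding protein gene Rbm14 (109.3). The summit lay inside the gene in 5 of these 6, and at Fam24b it lay 258 bp beyond the end.

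Germline genes were the list with the largest share of members called at the start. Of 37 listed germline genes with strand, 22 (59.5%) had a start region and 0 had an end region, against 2.70% and 5.39% of all genes with strand. With Rnf17, whose strand was not given, 23 of the 40 listed genes had a region, in 25 regions with a median height of 47.5. The list holds genes known for promoter methylation in somatic cells and was chosen with earlier results of these data known. Its members by role were as follows. Of synaptonemal complex and chromosome axis genes, Sycp2 and Hormad1 were the highest, and Hormad1 at chr3:95559349-95560090 had heights of 120, 84 and 65 with KCl and 102, 134 and 83 untreated. Sycp1 at chr3:102935272-102936422 had 91, 77 and 58 with KCl and 95, 100 and 80 untreated, and Sycp3 had a mean height of 41.5. All of these overlapped between the groups.

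Genes of the piRNA pathway, which silences transposons in germ cells, formed the other main part of the germline start regions. Mov10l1, an RNA helicase, shared its region at chr15:88982383-88983492 with the start of Mlc1, a membrane protein gene of astrocytes that runs the other way, and its heights were 96, 85 and 57 with KCl and 98, 107 and 79 untreated. Mael had 84, 71 and 49 with KCl and 84, 89 and 66 untreated, and Ddx4, the Vasa helicase, had 84, 56 and 30 with KCl and 64, 81 and 56 untreated. The Tudor domain genes Tdrd12 (mean height 72.2), Tdrd1 (64.8) and Tdrd9 (38.0), Asz1 (39.2) and Piwil1 (25.7) followed. Asz1 was almost level over the libraries, with 40, 41 and 37 with KCl and 39, 42 and 36 untreated. Sohlh2, a germ cell transcription factor gene, had 3 separate start regions of low height, with mean heights of 22.7, 22.2 and 17.7.

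Imprinted genes came second, with 9 of 33 (27.3%) called at the start and 4 (12.1%) at the end. Gnas had the highest at chr2:174284511-174285639, with 104, 88 and 52 in the KCl libraries and 96, 107 and 87 in the untreated libraries. This region lay at the outermost start coordinate of Gnas, and which transcript of the gene starts there was not assigned. Plagl1, a zinc finger factor, had 105, 75 and 52 with KCl and 93, 93 and 67 untreated at chr10:13090459-13091298. Cdkn1c, a cyclin-dependent kinase inhibitor whose strand was not given, had a region of 2233 bp at chr7:143459425-143461657 with 92, 77 and 49 with KCl and 92, 107 and 73 untreated. A single region at chr7:6729843-6730893 lay at the starts of both Peg3 and Usp29 (mean height 47.5), and further start regions lay at Mcts2 (50.8), Zdbf2 (46.8), Nnat (42.2), Nap1l5 (40.2) and Dlk1 (25.7). Nnat was the only region on the germline and imprinted lists whose groups did not overlap, at 41, 38 and 25 with KCl and 48, 57 and 44 untreated. Dlk1 had an end region as well (42.8), and Blcap (36.2) and Magel2 (16.3) had an end region only.

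Larger gene families are given by boundary, as counts without a test of any difference between them. Zinc finger protein genes were called at the end in 26 of 338 cases (7.69%) and at the start in 9 (2.66%), and their highest regions lay at the ends of Zfp768 (mean height 98.7), Zfp775 (88.8) and Zfp787 (78.0). Keratin and keratin-associated genes were called at the start in 6 of 87 cases (6.90%) and at the end in 3. Krt75, a keratin of hair follicles, was the highest of them at chr15:101573576-101574055, with 79, 60 and 43 with KCl and 82, 81 and 58 untreated. Olfactory receptor genes, which are short and arranged in clusters, were called at 17 starts and 17 ends of 938 (1.81% each), and 1 of 352 vomeronasal receptor genes, Vmn2r29, had a region. Solute carrier genes were called at 6 starts and 16 ends of 294, potassium channel genes at 4 starts and 2 ends of 67, and 3 of 42 collagen genes had a region, led by the end of Col6a2 (87.2). Of 57 clustered protocadherin genes, 6 had a region, all in the Pcdhb cluster on chromosome 18, where no strand was given, and Pcdhb22 was the highest (56.3).

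**Figure D3:**
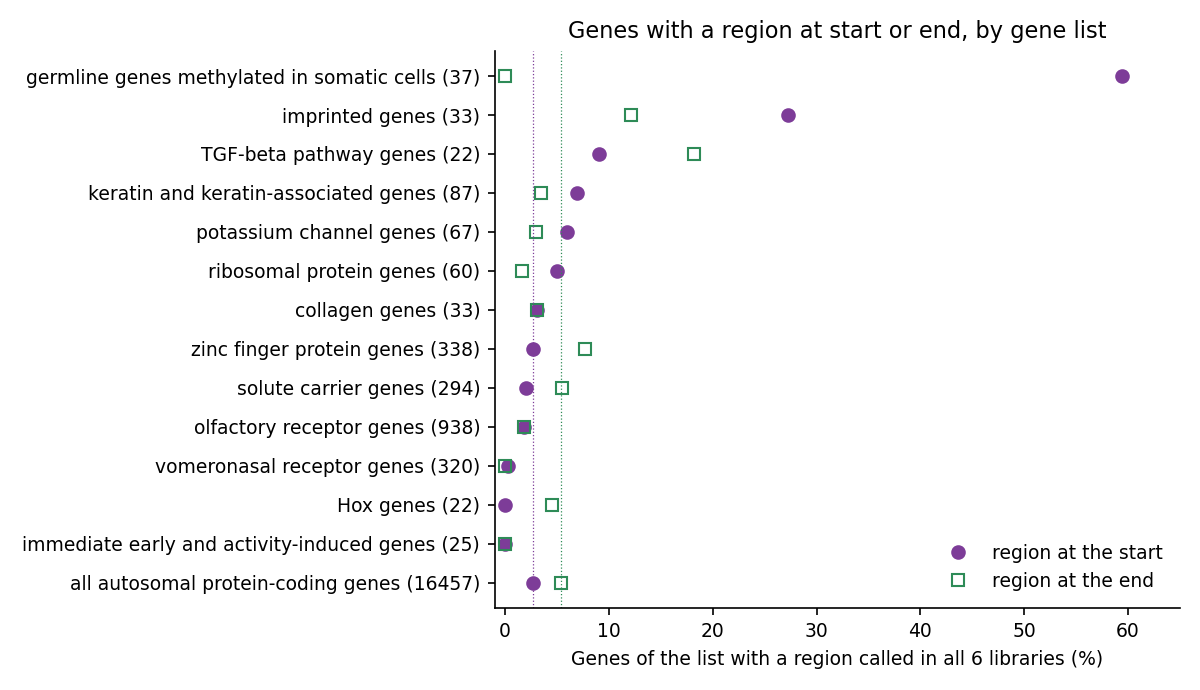
Share (%) of the genes of each list, numbers of genes with strand in brackets, that had a region called in all 6 libraries within 1 kb of the start (filled circles) or of the end (open squares); dotted lines mark the shares of all autosomal protein-coding genes with strand, 2.70% at the start and 5.39% at the end. Germline genes stand at 59.5% at the start and 0% at the end.

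The lists tied to neuronal activity and to cell types were small, so their shares rest on few genes. None of 32 immediate early and activity-induced genes had a gene-boundary region, against 7.78% of all genes. Of the TGF-beta pathway, named in the title of the study, 7 of 30 genes (23.3%) had one. These were the ends of the binding protein genes Ltbp3 (mean height 69.5) and Ltbp4 (25.2), of the inhibitory Smad gene Smad6 (21.2) and of the ligand gene Bmp4 (19.7), the starts of the co-receptor gene Eng (42.3) and of the ligand gene Tgfb1 (19), and a region at Tgfbr3 (12.8), whose strand was not given. Ltbp3 had heights of 80, 66 and 46 with KCl and 78, 89 and 58 untreated. Of genes of the DNA methylation machinery, 1 of 18 had a region, Mbd2, a methyl-CpG-binding protein (23.5). Marker genes were called at 1 of 7 for neurons (the end of Tubb3, 28.0), 0 of 7 for astrocytes, 1 of 5 for the oligodendrocyte lineage (the start of Cspg4, 30.7), 1 of 6 for microglia (the end of C1qb, 28.8) and 0 of 5 for endothelial and mesenchymal cells. Housekeeping genes were called at 1 of 18 (the end of Polr2a, 20.8), ribosomal protein genes at 4 of 80 and Hox genes at 1 of 39 (Hoxa9, with 2 regions at its end).

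Some regions served more than a single gene or boundary. Of the 1562 regions, 138 lay at boundaries of 2 genes and 3 at boundaries of 3 or more. Both genes ended there in 55 of the 138, a start met an end in 24, both genes started there in 11, and strand was not given for 1 or both genes in 46. Ends meeting ends thus outnumbered starts meeting starts. A region at both the start and the end was found for 81 genes. In 58 of them, all shorter than 3 kb, a single region lay within 1 kb of both boundaries, as at Mcts2, Rpl10l and Olfr281. Such a region need not span the gene. The other 23 genes had separate regions, and those with the highest lower member were Cdh24 (mean height 100 at the start and 66.2 at the end), Zfp579 (74.8 and 47.3), Lao1 (54.7 and 43.2), Casq1 (35.5 and 76.2) and Rhov (53.5 and 34.3). Casq1 was the exception among these 5, with the higher region at its end. The longest regions lay at Cxxc1 (2451 bp), Syna (2269 bp), Cdkn1c, Wfs1 (2102 bp) and the facing ends of Hcn2 and Polrmt (2079 bp).

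Starts under a region had a lower median number of CpG sites than starts in general, although starts with the fewest sites were seldom under a region. Among starts under a region the median height was greater where there were more CpG sites. For each of the 16457 genes with strand, the RefSeq promoter nearest the outermost start was taken, 250 bases before it and 50 after. In 193 promoters (1.17%) at least part lay under a region called in all 6 libraries, and they held a median of 11.0 CpG sites (quartiles 6 and 17), against 14 in the 15949 promoters under no active region. The share under such a region was 0.605% with 0 to 4 CpG sites, 2.47% with 5 to 9, 2.79% with 10 to 14, 1.54% with 15 to 19, 0.896% with 20 to 29 and 0.194% with 30 or more. The median height of those regions was 27.7, 27.6, 32.0, 35.3, 51.3 and 64.5 in the same order, although the last rests on 5 promoters. From 10 to 14 CpG sites upward the share thus fell while the median height rose. Across the 189 regions concerned, which share the 6 libraries, the CpG count and the mean height had a Spearman rho of 0.34. Single promoters departed from this, since the regions over Sec1 (9 CpG sites), Sycp2 (10) and Gm46731 (0) were among the 7 highest. The height is that of the region's highest summit, however, which can lie outside the counted bases. It lay 162 bp inside Sec1, 416 bp inside Sycp2 and 782 bp inside Gm46731, while only 50 bases after the promoter's start were counted. These distances run from the outermost start, and the counted Sycp2 promoter lay 118 bp from that coordinate. Promoters of the germline list under a region held a median of 19.5 CpG sites, against 10 in promoters under a region that are not on the list. The latter still include germ cell genes such as Tex12.

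**Figure D4:**
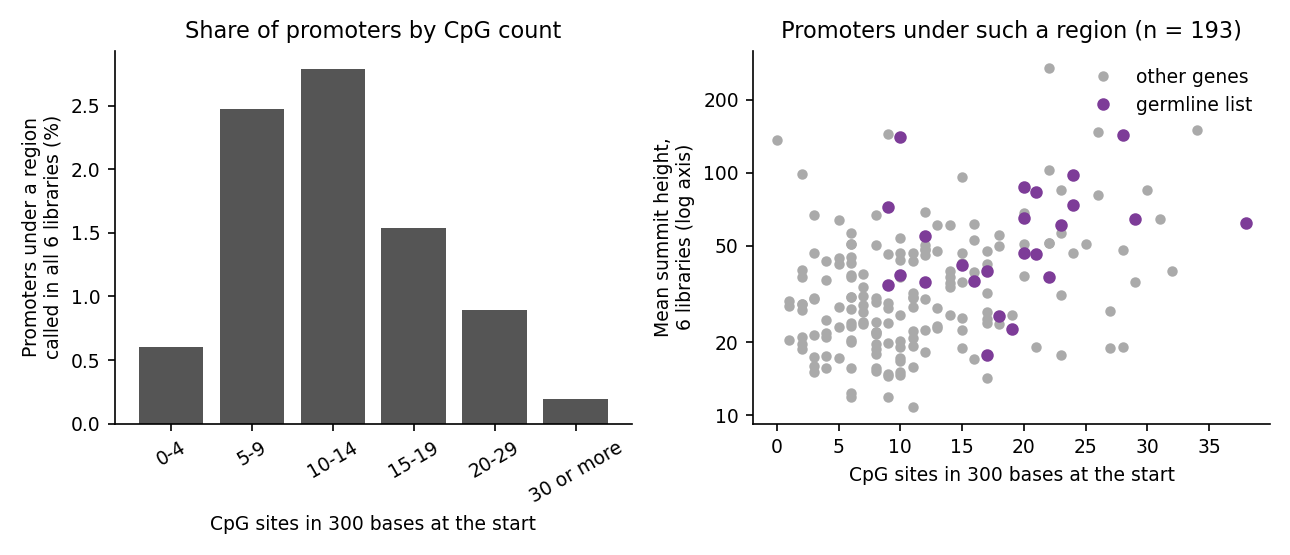
Left, share (%) of promoters under a region called in all 6 libraries by the number of CpG sites in 300 bases at the start; right, mean summit height over the 6 libraries (log axis) against that number for 193 promoters under such a region, with genes of the germline list in purple. The share is greatest, at 2.79%, with 10 to 14 CpG sites, while the median height is greatest, at 64.5, with 30 or more.

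The E-box letters CACGTG were more frequent in these promoters than in all promoters. Either strand was searched, which reads the same for this motif, and 37 of the 193 promoters (19.2%) held it, against 7.97% of all 16457. Among the germline list, 13 of 24 promoters under a region (54.2%) held it, against 14 of all 37 listed promoters (37.8%). Without the germline list, 24 of 169 (14.2%) did, among them the meiosis gene Tex12. The 24 promoters exceed the 22 listed genes with a start region because the promoter used can lie over 1 kb from the outermost coordinate. The letters GCGGGAA, an E2F motif, were found in 9.33% of the 193 and 6.14% of all. They were found in 7 of the 24 germline promoters under a region (29.2%) and in 11 of all 37 listed promoters (29.7%), so these shares were alike. TGACGTCA, the cyclic AMP response element, was found in 3.63% of the 193 and 2.40% of all, TGCCGC in 12.4% and 14% of all, and the TATA box letters TATAAA in 13% and 13.5% of all. No motif share was tested, a motif can lie in a part of the promoter outside the region, and these windows say nothing of whether a factor was bound.

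With KCl, heights at gene boundaries were lower on average, but not beyond the spread between libraries. The mean height of the 1562 regions was 38.4, 29.6 and 21.0 in the KCl libraries and 34.1, 39.7 and 29.6 in the untreated libraries. KCl replicate 3 was the lowest library and the groups overlapped. The group means were 29.6 ± 8.74 with KCl and 34.5 ± 5.05 untreated (SD, n = 3 each), a difference of -4.83. It was -0.478 without KCl replicate 3, -2.22 without untreated replicate 2, -7.27 without untreated replicate 3 and -9.22 without KCl replicate 1. The other regions called in all 6 libraries moved alike, at 26.8 ± 7.90 with KCl and 30.8 ± 3.50 untreated. KCl replicate 3 alone was the lowest library in 1193 of the 1562 regions (76.4%). Start regions averaged 31.3 ± 9.60 with KCl and 36.3 ± 5.16 untreated, and end regions 29.2 ± 8.37 with KCl and 33.8 ± 5.19 untreated. The median coefficient of variation of a region's height was 30.9% over the KCl libraries and 18.9% over the untreated libraries.

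Region by region, no change with KCl passed the threshold at a gene boundary. Heights were compared with limma on the log2(height + 1) scale, in which low regions show too small a fold change, over the 20537 regions with a mean height of at least 18.7, with Benjamini-Hochberg adjustment. Of the 1562 gene-boundary regions 1261 were tested and 301 were below that height. None was higher and none lower at an adjusted p under 0.05 (0.0% of all tested regions in either direction), with 0.932 as the lowest adjusted p. By unadjusted p under 0.05, 0 were higher (0.0% of all tested regions) and 7 (0.555%) were lower, against 1.12% of all tested regions. After median centring of each library, 12 (0.952%) were higher, against 1.97% of all, and 15 (1.19%) lower, against 1.67% of all. Both shares of gene-boundary regions were thus below those of all tested regions. The median log2 change was -0.26 at gene boundaries and -0.25 over all tested regions, so changes of single regions are given relative to the median tested region.

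Relative to that median, 593 gene-boundary regions lay above and 668 below, with a median of -0.01. From the 5th to the 95th percentile these changes ran between -0.31 and 0.27, against -0.32 and 0.31 over all tested regions, and the median SE of a single region was 0.20. Every SE given for a relative change is that of the fit after median centring. Among start regions 139 of 305 lay above the median, and among end regions 299 of 610. Of the germline list 4 of 24 tested regions lay above it and 20 below, with a median relative log2 change of -0.08. The SE of a single region of this list was between 0.09 and 0.23. For imprinted genes the split was 6 above and 7 below, and for the TGF-beta pathway 1 above and 5 below. In none of these lists did a region pass the test.

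**Figure D5:**
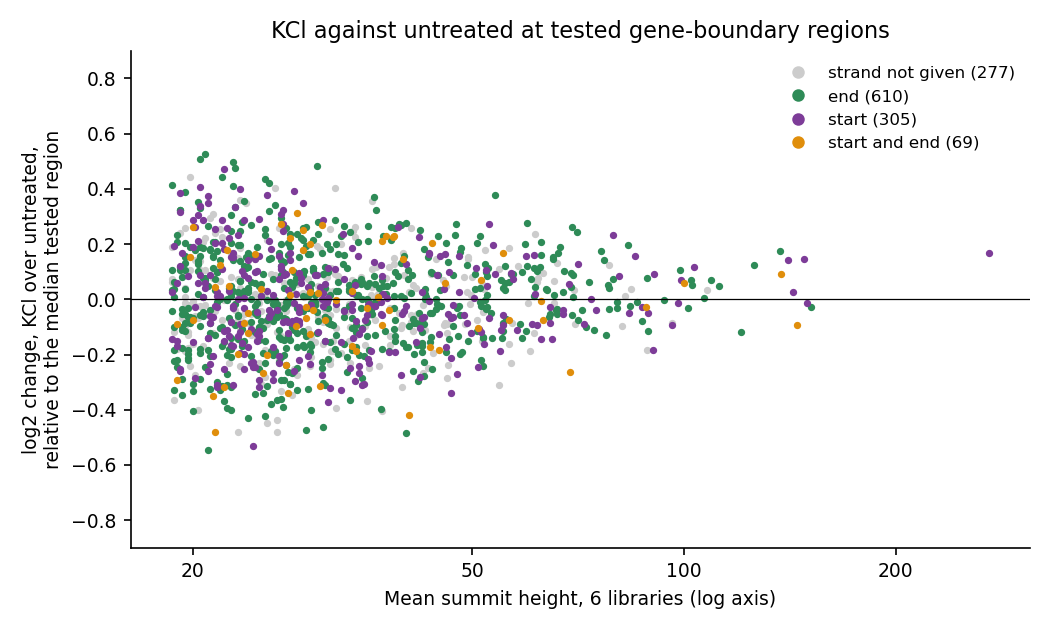
log2 change of the summit height, KCl over untreated, relative to the median tested region, against the mean height over the 6 libraries (log axis), for the 1261 tested gene-boundary regions by kind of boundary. Most lie between -0.31 and 0.27, the spread narrows as height increases, and none passed the test.

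Heights that did not overlap between the groups were no more frequent at gene boundaries than elsewhere. With KCl lower in every library, there were 64 such regions (4.1%), against 4.69% of the 26850 autosomal regions called in all 6 libraries. With KCl higher there was 1 (0.064%), against 0.123% of the 26850. The 64 included the regions of 3 TGF-beta pathway genes: Smad6, with 17, 18 and 21 with KCl and 23, 24 and 24 untreated, Bmp4, with 18, 13 and 19 with KCl and 21, 26 and 21 untreated, and Tgfb1, with 18, 16 and 12 with KCl and 27, 21 and 20 untreated. The Tgfb1 region is the one shared with the end of B9d2. All 3 were low regions, and their relative log2 changes of -0.08 ± 0.25, -0.18 ± 0.25 and -0.29 ± 0.24 (SE) were within about 1 SE of the median region. After median centring, 47 of the tested regions (3.73%) were lower without overlap, against 3.89% of all, and 39 (3.09%) were higher, against 4.67% of all.

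The regions with the lowest p, for heights as deposited unless centring is named, are given although none passed. Zbtb39, a zinc finger gene, had an end region at chr10:127746691-127747167 with heights of 20, 16 and 10 in the KCl libraries and 23, 33 and 24 in the untreated libraries. All 3 KCl heights were below all 3 untreated ones. The relative log2 change was -0.54 ± 0.23 (SE after centring), and the limma adjusted p for heights as deposited was 0.932. The other 4 lowest p among lower regions belonged to the Gdpd3 start beside Mapk3 (relative log2 change -0.53), Zfp366 (-0.48), the Gfy and Pth2 region (-0.48) and Batf2 (-0.48), with the same adjusted p. After centring, the lower region with the lowest p was the end of Nt5c3b, a nucleotidase gene, at 41, 31 and 20 with KCl and 53, 51 and 45 untreated. It was followed by the end of Cbx8, a Polycomb subunit gene, at 30, 23 and 17 with KCl and 34, 41 and 39 untreated. The groups did not overlap in either, and the relative log2 changes were -0.48 ± 0.16 and -0.46 ± 0.19 (SE), with a limma adjusted p of 1.00 after centring.

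Among regions above the median change, the facing ends of Iars2, a mitochondrial isoleucyl-tRNA synthetase gene, and Rab3gap2, a gene of a Rab3 regulator, had 30, 22 and 17 with KCl and 17, 24 and 15 untreated, a relative log2 change of 0.53 ± 0.22 (SE). The groups overlapped there. The other 4 regions above the median with the lowest p were the end of Hsf2bp (0.51), the end of Farsb, a phenylalanyl-tRNA synthetase subunit gene (0.50), Dazl (0.03) and the end of Pdzrn3 (0.00). As deposited, Dazl and Pdzrn3 were lower with KCl, by log2 changes of -0.22 and -0.24, and the p that ranked them belongs to that direction. After centring, the end of Krtap13 led, at 73, 63 and 35 with KCl and 58, 57 and 37 untreated, a relative log2 change of 0.38 ± 0.15 (SE), with overlap, and was followed by the end of Cldn12, a claudin gene (0.48).

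The single region in which every KCl height exceeded every untreated height lay at the end of Pth1r, the parathyroid hormone receptor gene, at chr9:110722295-110722668, and it is named here because its values were seen. It had 12, 14 and 17 in the KCl libraries and 10, 11 and 8 in the untreated libraries. Its mean height was below the limit for testing, and KCl replicate 3, which was the lowest library in most regions, was the highest here.

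The limits of the choice can be read from the nearest regions on either side. Of 6027 active regions at gene boundaries, 1562 (25.9%) were called in all 6 libraries, against 20.3% of the other 124855 autosomal active regions, 764 in 5 and 1528 in only 1. The library without an interval was KCl replicate 3 in 603 of the 764 (78.9%), and their mean heights had a median of 16.2. The highest regions called in 5 libraries lay at Sfi1 (143.2, no interval in untreated replicate 3), at the end of Lars2 (94.8, none in KCl replicate 3) and at the end of Olfr1419 (47.2, none in KCl replicate 3). The lowest regions called in all 6 lay at the start of Vav1, with 8, 13 and 12 with KCl and 8, 13 and 11 untreated, and at the ends of Cldn14 and Gm46382 (mean height 11.3 each). By distance, the regions just outside the window lay 1001 bp from Loxhd1 (61.5), 1003 bp from Rpusd1 (25.3) and 1004 bp from Sppl2c (14), while that at Trim8 (34.2) lay at 1000 bp, just inside.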

How the data were processed

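MeDIP-seq was available for 3 KCl and 3 untreated libraries. Library construction and read analysis were done by a company, per the labels' protocols, and BWA, SICER and the build mm10 are named without versions in the submitters' processing notes. Caller settings, read totals and scaling were not given in the sources used here. Depth is therefore unknown. The deposited file has 13 tracks, per the file headers: intervals and summits of each library and the merged active regions. Summit heights deposited by the authors, a signal of unstated unit, were whole numbers of at least 6. Of several summits in a region the highest was used.

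Gene coordinates, strand and promoters came from RefSeq tables of GRCm38.p6, whose coordinates are those of mm10. Strand was taken from the promoter table, which covered 16457 genes. No genome was used, so exons and introns were not assigned. Regions on chromosome 18 (44) had no strand. Coordinates are 1-based.

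limma 3.58.1 in R 4.3.3 was fitted with a variance trend to log2(height + 1), two-sided, over all 20537 regions above the 25th percentile of mean height, after a check on simulated heights. Counts used Python 3.11.15, pandas 2.3.3 and scipy 1.17.1. Alternatives were another pseudocount, no height filter, median centring, quantile normalization, a replicate block, leaving out each library, and other windows and call rules. Leaving out libraries with centring was added after seeing the data. Deviations from group means correlated at 0.113, 0.108 and 0.114 between libraries of the same replicate number, and between -0.0882 and -0.0137 otherwise. By the limit of 0.1 the numbers pair the libraries, while no label states the meaning of a number.

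The members and gene lists were chosen with earlier results of these data known. Named were the 10 highest start regions, including those that also touch an end, and the 6 highest regions at an end only. Also named were the 5 lowest p in each direction, up to 4 regions per list in full, the 5 longest, 5 genes with separate regions at both boundaries, the 3 lowest and the nearest regions outside the choice. The 3 lowest p after centring in each direction, further list members and Pth1r were named after their values were seen.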

Additional observations from a re-analysis of the deposited data

How the results depend on the processing

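No gene-boundary region was called higher or lower with KCl in the main comparison (limma, 0 and 0, lowest adjusted p = 0.932) or with a pseudocount of 5, no height filter, median centring, quantile normalization or any single library left out, where the lowest adjusted p ran between 0.184 without KCl replicate 1 and 1.00. With a replicate block, which compares libraries of the same number, 0 were higher and 0 lower (lowest adjusted p = 0.857, and 0.889 with centring), 0 and 22 had an unadjusted p under 0.05, against 0 and 7 without it, and the mean height difference was -4.83, with pairs between -10.1 and 4.29. Regions lower at an unadjusted p under 0.05 numbered 232 without KCl replicate 1 and 31 in that setting after centring. The number of regions was 948 with a 500 bp window and 2741 with a 2 kb window, and 1572 to 2165 with a library left out, the most without KCl replicate 3. The share of regions at a start was 40.5% with a 2 kb window, and 35.7% to 37.2% with a library left out. The mean height difference ran between -9.22 and -0.478 with a library left out. Of the relative log2 changes of named regions recomputed under the alternatives, 1037 moved by less than their SE and 31 by more. None of these regions passed the test.

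Depth is unknown and each group has 3 libraries. Of the regions called in exactly 5 libraries, most lacked an interval in KCl replicate 3, and a region that lost its call there was outside the comparison. Regions with heights near 10 differ by a few units between libraries, and changes at that level were not detectable.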
